A study of Homo sapiens with 6 samples.

Results

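CLPTM1L and the genes listed with it on chromosome band 5p15.33 were examined in HGC-27 cells, an undifferentiated human gastric cancer line, with and without the peptide GLUP. CLPTM1L was chosen by its fall between Con and GLUP in these same libraries, and the other genes were selected by their position around it, so that the contrast of GLUP with Con is a description for all of them and carries no test. Of the 9 genes listed (CLPTM1L, TERT, SLC12A7, NKD2, TRIP13, BRD9, LPCAT1, MRPL36 and NDUFS6-AS1), 8 were found by symbol among the 62443 genes of the table. NDUFS6-AS1 matched no symbol or identifier here and has no value, and NDUFS6, named in its symbol, was described in its place. The 3 Con libraries carry the label of no treatment, although the methods of the study give the buffer of the peptide to control cells, and the 3 GLUP libraries came from cells given GLUP, a cyclic peptide with repeats of a motif that binds the transcription factor TEAD4, modelled on the cofactor VGLL4. Duration of the treatment is stated differently in the results and the methods of the study. All 6 libraries came from 1 line. Of its mesenchymal markers only VIM was abundant (222.2 to 387.2 FPKM). CDH2 was at most 0.0508 FPKM and FN1 at 0.644 to 3.25 FPKM. The epithelial markers EPCAM and CDH1 were low as well (at most 0.124 and 0.0799 FPKM). The fibroblast markers DCN and LUM stood at 16.0 to 41.3 and 47.2 to 76.7 FPKM, and the blood markers PTPRC, CD3E and CD68 summed to at most 0.0394 FPKM. Of the 5 epithelial markers, 3 were above a mean of 1 FPKM, the keratins KRT8, KRT18 and KRT19. The 5 summed to 2.97 to 3.70 FPKM in Con and 5.18 to 6.06 in GLUP. The 3 mesenchymal markers, mainly VIM, summed to 336.8 to 390.5 FPKM in Con and 222.8 to 336.6 in GLUP, and the part of these shifts in the values below was not tested. In such bulk libraries, fewer cells that transcribe a gene and less RNA of it per cell cannot be told apart.

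Values were FPKM (fragments per gene, relative to gene length and to all mapped fragments), summing to between 909735 and 965147 per library, and the number of reads behind them is unknown. Fold changes were taken on log2(FPKM + 1), a scale that understates the change of low genes, and the test was limited to the 7406 genes whose mean over the 6 libraries reached 1 FPKM. Con replicate 2 stood apart, its mean correlation with the others being 0.898, where the remaining 5 had 0.954 to 0.964. Library deviations followed base composition. Their Spearman correlations with GC content were -0.343, -0.601 and 0.458 in Con replicates 1 to 3. They were 0.435, 0.544 and 0.34 in GLUP replicates 1 to 3. The trend was thus partly aligned with the groups, also without Con replicate 2. Its part in the values below was not tested except where a fit without it is given. Over all tested genes the median log2 fold change was -0.23 and 65.5% were lower in GLUP.

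CLPTM1L is a membrane protein of the endoplasmic reticulum, with a role in moving a lipid precursor of the glycosylphosphatidylinositol (GPI) anchor across the membrane, and is known for protecting tumour cells from apoptosis. It lies beside TERT, which encodes the catalytic subunit of telomerase, in a band that is often gained in tumours and is well known for inherited susceptibility to cancer. The other listed genes serve unrelated functions, and what is asked is whether the fall of CLPTM1L was shared by them.

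The sequence before the start of CLPTM1L is shown because this gene carries the change, and the stretch between BRD9 and TRIP13 because these neighbours start back to back. Both were taken from RefSeq promoter windows of GRCh38.p14, and are written in the direction of CLPTM1L and of TRIP13. Capitals mark the letters TGACGT (a core of the cyclic AMP response element) in the former and GGAAGT (a core bound by ETS factors) in the latter, on either strand.
CLPTM1L, chr5:1345100-1345349, minus strand: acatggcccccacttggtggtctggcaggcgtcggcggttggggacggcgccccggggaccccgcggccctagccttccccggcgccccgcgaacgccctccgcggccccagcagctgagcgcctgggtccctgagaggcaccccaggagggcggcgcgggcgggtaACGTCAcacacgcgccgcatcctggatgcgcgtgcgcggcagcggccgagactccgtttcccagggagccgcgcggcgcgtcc
BRD9 to TRIP13, chr5:892802-892883, plus strand: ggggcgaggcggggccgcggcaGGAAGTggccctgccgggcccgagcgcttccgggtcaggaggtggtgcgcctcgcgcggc

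The CLPTM1L stretch held 36 CpG pairs in 250 bases, with a GC content of 77.2%. The stretch between BRD9 and TRIP13 held 12 CpG pairs in 82 bases, with a GC content of 81.7%. Because the study concerned TEAD4, the TEAD core GGAATG was searched on both strands of the windows from 250 bases before to 50 after each start. None of the 10 windows of the 8 genes and NDUFS6 held it, beside 14.0% of 35116 windows in the table. With so few windows, of which those of BRD9 and TRIP13 overlap, nothing is read from this absence. The letters TGACGT were in the windows of CLPTM1L and LPCAT1, beside 7.98% of all windows. The letters GGAAGT were in those of CLPTM1L, SLC12A7, TRIP13 and BRD9, beside 22.8% of all windows. For TRIP13 and BRD9 this is 1 match, the one in capitals above, and for CLPTM1L it begins at the start of the gene, just after the bases shown. CCAAT was found for NKD2 alone (34.6% of all windows), and the E-box CACGTG for TERT, SLC12A7 and MRPL36 (7.26%). TGACGT and GGAAGT were added after the sequences had been read.

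CLPTM1L (ENSG00000049656, protein-coding, GRCh37 chromosome 5, 1317867 to 1345214, minus strand) was at 84.0, 61.1 and 62.8 FPKM in Con replicates 1 to 3. It was at 12.6, 11.8 and 13.8 FPKM in GLUP replicates 1 to 3. The highest GLUP value thus lay far below the lowest Con value, and the groups were also narrow, with coefficients of variation of 18.4% in Con and 7.79% in GLUP. Group means were 69.3 ± 12.7 FPKM (SD, n = 3) and 12.7 ± 0.990 FPKM (SD, n = 3), so that GLUP held 18.3% of the Con level, a 5.45-fold difference. On the log2 scale this was a change of -2.35 (SE 0.29), which is -2.12 when the median of all genes is subtracted. Taking out each library's trend with GC content and length gave -2.52, and without Con replicate 2 it was -2.43. No other annotated gene overlaps CLPTM1L in GENCODE release 44. Among the tested genes of each library ordered by FPKM, CLPTM1L ranked between 705 and 816 in Con and between 1730 and 1872 in GLUP. Only 5 of 7406 genes had a lower log2 fold change with a pseudocount of 1, and none of these was among the 995 genes whose mean level was at least that of CLPTM1L. With a pseudocount of 0.01, which gives more weight to low genes, CLPTM1L ranked 40 from the lowest.

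**Figure D1:**
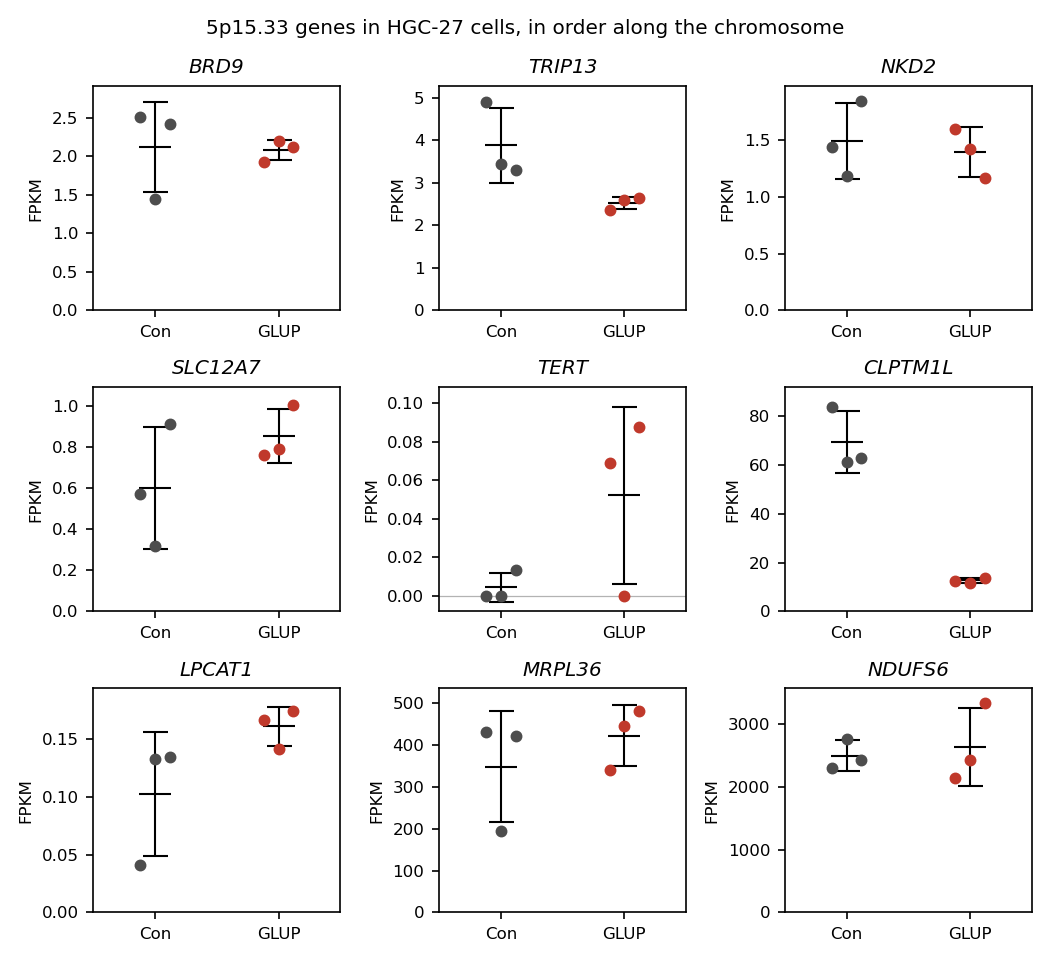
FPKM (vertical axes, linear, each with its own range) of the 8 genes found and NDUFS6 in the 3 Con and 3 GLUP libraries; points are libraries, horizontal ticks the group means and bars the SD (n = 3). CLPTM1L is at 61.1 to 84.0 FPKM in Con and 11.8 to 13.8 in GLUP, while the groups of BRD9, NKD2, SLC12A7, TERT, MRPL36 and NDUFS6 overlap.

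The nearest listed neighbours of CLPTM1L all had means below 1 FPKM. TERT (ENSG00000164362, 1253262 to 1295183, minus strand) was listed at 0, 0 and 0.0131 FPKM in the Con replicates while the GLUP replicates were listed at 0.0688, 0 and 0.0878 FPKM. It was therefore at or near 0 in every library, with overlapping groups, and no fold is given. LPCAT1 (ENSG00000153395, 1456595 to 1524077, minus strand), an enzyme that makes phosphatidylcholine from its lyso form, was at 0.0409, 0.133 and 0.134 FPKM in Con and 0.167, 0.142 and 0.175 FPKM in GLUP. Its GLUP values all lay above those of Con, at a level where 1 Con library made most of the distance. SLC12A7 (ENSG00000113504, 1050499 to 1112178, minus strand), the potassium chloride cotransporter KCC4, was at 0.572, 0.316 and 0.912 FPKM in Con and 0.763, 0.790 and 1.00 FPKM in GLUP. These groups overlapped, since Con replicate 3 exceeded both GLUP replicates 1 and 2. The log2 fold change of SLC12A7 was 0.23 (SE 0.18), and 0.09 without Con replicate 2. All 3 neighbours had a higher mean in GLUP than in Con, at levels too low for a shared direction to be read.

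Further towards the end of the arm, NKD2 (ENSG00000145506, 1008917 to 1039058, plus strand), which binds Dishevelled and restrains Wnt signalling, was at 1.44, 1.18 and 1.84 FPKM in Con and 1.60, 1.42 and 1.16 FPKM in GLUP. The groups covered the same range, with a log2 fold change of -0.05 (SE 0.22). Its sign depended on the scaling: NKD2 was at 0.12 after scaling by a trimmed mean of log ratios and at -0.31 with the GC trend removed.

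BRD9 and TRIP13 start 82 bases apart on opposite strands. BRD9 (ENSG00000028310, 850406 to 892916, minus strand), the bromodomain subunit of the noncanonical BAF chromatin remodelling complex, was at 2.50, 1.44 and 2.41 FPKM in Con and 1.93, 2.19 and 2.12 FPKM in GLUP. All GLUP values fell within the Con range, and the log2 fold change was -0.00078 (SE 0.25), although ZDHHC11 shares exon sequence with BRD9 on the same strand, which makes its values uncertain. TRIP13 (ENSG00000071539, 892999 to 919472, plus strand), an ATPase that remodels MAD2 and other HORMA-domain proteins in the spindle checkpoint, was at 4.90, 3.44 and 3.31 FPKM in Con. In GLUP it was at 2.37, 2.60 and 2.64 FPKM, all below Con, with a log2 fold change of -0.45 (SE 0.25). Relative to the median of all genes this change was -0.22, and -0.06 once the GC and length trend was taken out (BRD9 -0.13), the canonical transcript of TRIP13 having the lowest GC content of the 8 genes (45.0%). The ratio of TRIP13 to BRD9 within a library was 1.96, 2.39 and 1.37 in Con and 1.23, 1.19 and 1.24 in GLUP, without overlap, but a ratio keeps the GC trend, and with that trend taken out BRD9 was the lower of the pair. The difference between them was not tested.

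On the other side, MRPL36 and NDUFS6 also start back to back, 40 bases apart in the GENCODE annotation. The RefSeq windows searched for motifs place their starts further apart. On GRCh38.p14 the window of MRPL36 was 1799788 to 1800087 and that of NDUFS6 1801157 to 1801456. MRPL36 (ENSG00000171421, 1798499 to 1801480, minus strand), a protein of the large subunit of the mitochondrial ribosome, was at 431.0, 194.6 and 421.9 FPKM in Con and 340.9, 446.9 and 481.6 FPKM in GLUP. The low value of Con replicate 2 set its positive log2 fold change of 0.35 (SE 0.36), which was -0.03 without that library. NDUFS6 (ENSG00000145494, 1801521 to 1816162, plus strand), an accessory subunit of respiratory complex I, was at 2298, 2770 and 2427 FPKM in Con and 2147, 2423 and 3342 FPKM in GLUP. Here Con replicate 2 was the highest of the Con libraries and the groups overlapped, with a log2 fold change of 0.06 (SE 0.25).

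In order of mean FPKM over the 6 libraries, which is a level per length, NDUFS6 (2568) stood first, followed by MRPL36 (386.2), CLPTM1L (41.0), TRIP13 (3.21), BRD9 (2.10), NKD2 (1.44), SLC12A7 (0.726), LPCAT1 (0.132) and TERT (0.0283). BRD9 overlapped NKD2 in its range over the libraries. The ranges of TRIP13 and BRD9 overlapped as well, at 2.37 to 4.90 and 1.44 to 2.50 FPKM, and so did those of LPCAT1 and TERT. All other neighbours in this order were apart.

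Whether the fall of CLPTM1L was shared along the band was then read from counts. Of the 5 listed genes that passed the minimum of 1 FPKM (CLPTM1L, NKD2, TRIP13, BRD9 and MRPL36), limma called none at an adjusted p under 0.05, as it called 0% of all 7406 genes. At an unadjusted p under 0.05 the fit held 1606 genes, CLPTM1L being the single listed gene among them. GLUP was below Con without overlap for CLPTM1L and TRIP13, as for 22.7% of all tested genes, and above Con without overlap for none of the 5, where the share of all genes was 7.55%. CLPTM1L was the single listed gene that was more than 2-fold lower on this scale, as were 6.81% of all genes. Since the contrast chose CLPTM1L, nothing is read from these counts.

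The band was next taken as a whole from the annotation, as all genes of chromosome 5 that end within its first 4.5 Mb. Of 96 such genes in the table, 48 were listed at 0 in every library and 12 reached a mean of 1 FPKM. Besides CLPTM1L, 6 of the 11 tested genes were lower in GLUP (54.5%) and their median log2 fold change was -0.00078, with values from -1.80 to 1.17. With 11 genes the median is the value of a single gene, here BRD9, which the exons shared with ZDHHC11 make uncertain. Without Con replicate 2 the median of the 11 was -0.14, beside -0.18 for all genes. CLPTM1L was thus 2.35 below the median of its band (difference -2.35), and this difference ran from -2.55 to -2.20 over all alternatives tried. In the rest of 5p, 48 of 57 tested genes were lower (84.2%, median -0.30), and on 5q 244 of 307 (79.5%, median -0.38). With the trimmed mean of log ratios, which moves the median of all genes by more than 0.1, 3 of the 11 band genes were lower. Their median was 0.23 in that fit, where 50.6% of all genes were lower, with a median of -0.008. With the GC and length trend removed, 7 of the 11 were lower, with a median of -0.06. In that fit 48.7% of all genes were lower, with a median of 0.01. The place of the band relative to all genes thus depended on the processing. limma called none of the 11 genes, and 2 had an unadjusted p under 0.05, SDHA and ENSG00000286001, no more than the 21.7% of all tested genes.

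**Figure D2:**
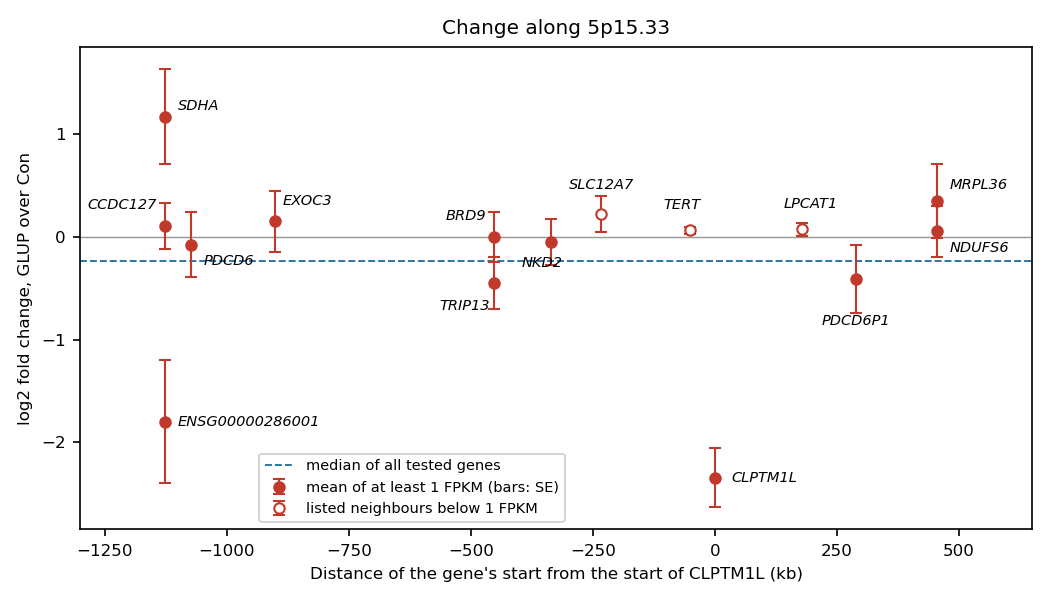
Log2 fold change between GLUP and Con (vertical axis, bars are SE) against the distance of each gene's start from that of CLPTM1L in kb; filled points are the 12 genes of 5p15.33 whose mean reached 1 FPKM, open points TERT, SLC12A7 and LPCAT1, and the dashed line is the median of all tested genes at -0.23. CLPTM1L lies at -2.35, and the listed neighbours on both sides lie between -0.45 and 0.35.

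The largest other changes in the band lay at -1126.8 kb relative to the start of CLPTM1L, towards the telomere, and concerned genes that overlap each other. SDHA, the catalytic subunit of succinate dehydrogenase, was at 5.57, 0.815 and 4.59 FPKM in Con and 8.08, 10.8 and 6.14 FPKM in GLUP, a log2 fold change of 1.17 (SE 0.47) with no overlap. ENSG00000286001, an annotated gene that spans SDHA and PDCD6 on the same strand, was at 4.46, 17.4 and 3.26 FPKM in Con and at 1.78, 0 and 2.66 FPKM in GLUP, a log2 fold change of -1.80 (SE 0.60). In Con replicate 2 SDHA was at its lowest and ENSG00000286001 at its highest, in GLUP replicate 2 the reverse, and how the quantifier divided their shared reads was not tested. Without Con replicate 2 their changes were 0.59 and -1.15. PDCD6, a calcium-binding protein of the secretory pathway, was at 272.8 ± 84.1 FPKM (SD, n = 3) in Con and had a log2 fold change of -0.07 (SE 0.32). EXOC3, a subunit of the exocyst, changed by 0.15 (SE 0.30), CCDC127 by 0.11 (SE 0.23) and the pseudogene PDCD6P1 by -0.41 (SE 0.33) on the log2 scale, all with overlapping groups. Without Con replicate 2 EXOC3 turned to -0.09, PDCD6 was at -0.31 and PDCD6P1 at -0.73.

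Of the 36 genes of the band that were above 0 in some library but below the minimum, 14 were lower and 22 higher in GLUP. Groups did not overlap for 3 of them, LPCAT1 and EXOC3-AS1 (higher) and ENSG00000286388 (lower), a share near the 9.18% of all 24038 genes below the minimum that were above 0 in some library (3.41% higher and 5.77% lower). ENSG00000286388 (long noncoding RNA, 1345312 to 1350901, plus strand), singled out after its values were seen, starts 97 bases from the start of CLPTM1L on the opposite strand. It was at 0.288, 0.275 and 0.369 FPKM in Con and 0.152, 0.171 and 0.142 FPKM in GLUP. This transcript therefore stood at 49.9% of its Con level on the FPKM scale, the same direction as CLPTM1L and a smaller change, at a level far below 1 FPKM. Reads from its strand and from that of CLPTM1L may not have been told apart, as strand-specific counting is not given in the sources used here, although the annotated genes do not overlap.

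**Figure D3:**
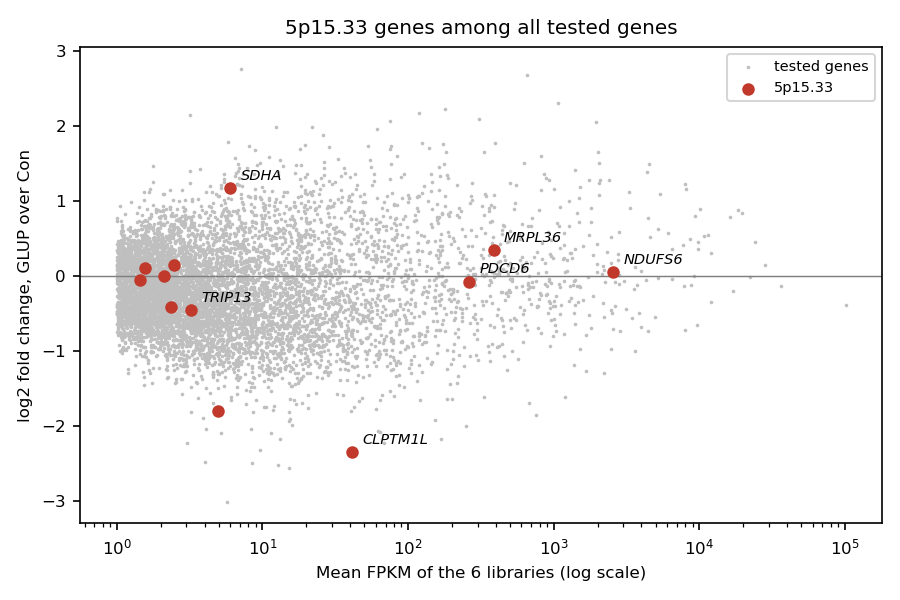
Log2 fold change between GLUP and Con (vertical axis) against the mean FPKM of the 6 libraries (horizontal axis, log scale) for the 7406 tested genes (grey) and the 12 of 5p15.33 (red). CLPTM1L, at a mean of 41.0 FPKM and -2.35, lies at the lower edge of the cloud at its level, and most other red points lie near 0.

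Ratios within a library do not depend on how libraries are scaled. CLPTM1L to BRD9 was 33.6, 42.4 and 26.0 in Con and 6.54, 5.38 and 6.49 in GLUP. CLPTM1L to TRIP13 was 17.1, 17.8 and 19.0 in Con and 5.31, 4.54 and 5.22 in GLUP. Relative to NKD2 it went from 34.1 to 58.5 in Con to 7.89 to 11.8 in GLUP, and relative to MRPL36 from 0.149 to 0.314 in Con to 0.0264 to 0.0370 in GLUP. For each of these 4 neighbours, all GLUP ratios lay below all Con ratios. CLPTM1L was chosen by its fall and these neighbours changed less, so nothing is read from this separation. These ratios also keep the GC trend. The Con ratios were most even against TRIP13.

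**Figure D4:**
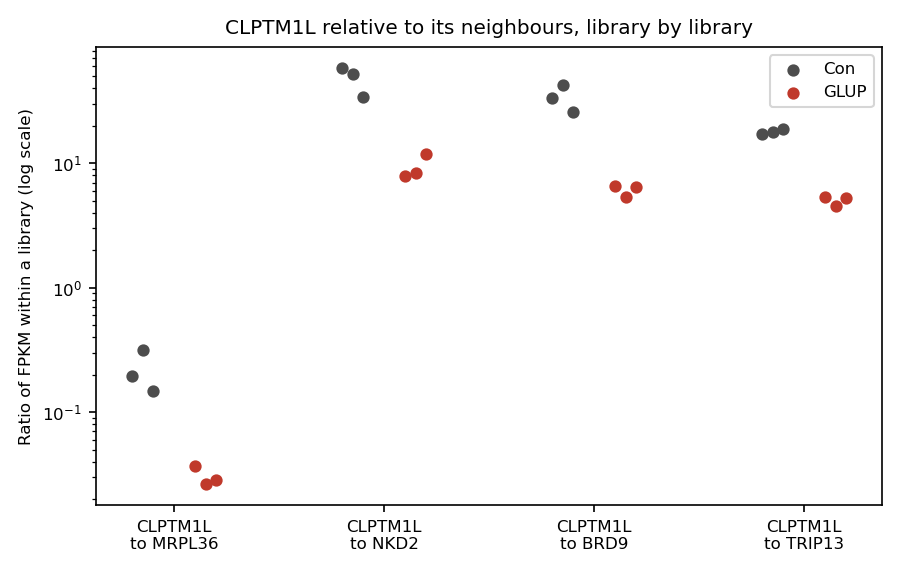
Ratio of the FPKM of CLPTM1L to that of 4 neighbours within each library (vertical axis, log scale), with Con libraries in grey and GLUP libraries in red, and each point 1 library. Against TRIP13 the ratios are 17.1 to 19.0 in Con and 4.54 to 5.31 in GLUP. The groups are apart for every neighbour, which restates the choice of CLPTM1L by its fall.

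The pathways of these genes were given by lists, which were compared by their counts alone. CLPTM1, the closest relative of CLPTM1L, was at 0.396, 0.214 and 0.779 FPKM in Con and 0.531, 0.976 and 0.676 FPKM in GLUP, with overlapping groups, below the minimum. Of 30 genes for the synthesis and transfer of GPI anchors, 19 were tested and 12 were lower in GLUP, with a median log2 fold change of -0.11. Their values ran from -1.33 for PIGK, the protease subunit of the GPI transamidase, to 1.23 for DPM2, a subunit of dolichol phosphate mannose synthase. DPM2 was at 4.66 FPKM in Con replicate 2 against 24.4 to 51.6 FPKM in the others. Without that library DPM2 changed by 0.44 and PIGK by -0.93, and the list had a median of -0.26.

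Around TERT, 9 of 14 genes of telomerase and shelterin were tested, 7 of them lower, with a median of -0.46. GAR1, a protein of H/ACA ribonucleoproteins, was the lowest at -0.61 and NHP2, of the same particles, the highest at 0.90, which was 0.46 without Con replicate 2. TERC, the RNA template of telomerase, was listed at 0.918, 0 and 0 FPKM in Con and 0, 0.197 and 0.103 FPKM in GLUP. Around TRIP13, 8 of 11 spindle checkpoint genes were tested and 6 were lower, with a median of -0.50. The range went from -1.14 for BUB3, which brings checkpoint kinases to the kinetochore, to 0.89 for CDC20, the activator that the checkpoint holds back. CDC20 was at 19.5 FPKM in Con replicate 2 and at 69.4 to 102.7 FPKM in the other libraries, and changed by 0.27 without that library. MAD2L1, the substrate of TRIP13, which like TERC is named for its role and was chosen after its values were seen, was at 17.1, 16.2 and 7.89 FPKM in Con and 8.42, 8.77 and 8.83 FPKM in GLUP, with overlapping groups.

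Around BRD9, 10 of 13 genes of the noncanonical BAF complex were tested and 6 were lower, with a median of -0.14, from -0.77 for the ATPase SMARCA2 to 1.15 for ACTB, which is also the actin of the cytoskeleton. Among lysophospholipid acyltransferases, 5 of 12 were tested and 2 were lower (median 0.09), from MBOAT1 at -0.87 to AGPAT1 at 0.44. Without Con replicate 2 the median of this list turned to -0.15, with MBOAT1 at -0.55 and AGPAT1 at 0.21. Only 2 of 13 cation chloride cotransporters and their kinases were tested, SLC12A2 at -0.94 and WNK1 at -0.25 (-0.50 and -0.09 without Con replicate 2), and NKD2 was the single tested gene of 7 in the list of Naked and Dishevelled. Of 7 complex I genes near NDUFS6 in its assembly, all were tested and 4 were lower (median -0.49), from NDUFA12 at -1.61 to NDUFV1 at 0.76. Both rested in part on Con replicate 2: NDUFA12 was at 3360 FPKM there against 1444 and 820.0 in the other Con libraries, NDUFV1 at 21.2 against 94.6 and 115.7, and without it the changes were -1.07 and 0.01 and the median -0.23. The telomerase list likewise went to a median of -0.22 without that library. Over all lists without CLPTM1L, 40 of 61 tested genes were lower (65.6%, against 65.5% of all tested genes). limma called none of the 61, with 15 at an unadjusted p under 0.05, close to the 21.7% of all tested genes at that p.

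The genes whose values ran most like those of CLPTM1L over the 6 libraries lay on other chromosomes, as most tested genes do. By Pearson correlation of log2(FPKM + 1), which here follows mainly the distance between the groups, these included XNDC1N (0.993), SNAPC1 (0.990), MNX1-AS1 (0.988) and RNFT1 (0.984). SNAPC1, a subunit of the complex that starts transcription of small nuclear RNA genes, was at 14.8, 13.2 and 10.2 FPKM in Con and 3.53, 3.48 and 4.20 FPKM in GLUP. Among the listed genes and NDUFS6, TRIP13 correlated with CLPTM1L at 0.894, NKD2 at 0.163, BRD9 at 0.0737, NDUFS6 at -0.136 and MRPL36 at -0.327. In this order they stood at percentiles 95.8, 39.4, 36.2, 29.5 and 22.8 of the correlations of all other tested genes. The other tested genes of the band ran from -0.64 for SDHA to 0.71 for ENSG00000286001, and all these values share the libraries and their base composition.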

How the data were processed

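RNA sequencing was done on HGC-27 cells, and 3 Con and 3 GLUP libraries were grouped by their titles. The authors deposited FPKM values per gene, with no counts. The submitters' processing notes name HISAT2, Cufflinks and RSEM and the build GRCh38.p10, with no versions of the tools. Row identifiers, however, carry the suffix of a GENCODE annotation lifted to GRCh37, so gene coordinates were taken from GENCODE release 44 lifted to GRCh37. Of 62492 rows, 49 copies on the Y pseudoautosomal region were summed with their counterparts, and 62162 of the 62443 genes matched the table of gene names. Labels do not say that libraries came from separate cultures, while the methods speak of biological replicates. No tested gene had identical values in a pair of libraries.

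The comparison was fitted with limma 3.58.1 (lmFit, eBayes with trend) in R 4.3.3 on log2(FPKM + 1) of genes whose mean reached 1 FPKM, two-sided, without covariates, with Benjamini-Hochberg adjustment over all genes. These steps were tested on simulated data. For genes under this minimum, values came from a fit to the unfiltered table. Sequences and motifs were read from RefSeq windows with Python 3.11.15. Named genes were the listed genes, NDUFS6, all tested genes of 5p15.33, the extremes of 9 lists, CLPTM1 and the 5 genes most correlated with CLPTM1L, of which 1 is not reported here. The members and lists were chosen with earlier results of these data known. Correlations of the deviations of same-numbered libraries were 0.13, -0.01 and -0.17. With 3 libraries per group these cannot show whether replicate numbers paired the libraries, and the main fit left pairing out.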

Additional observations from a re-analysis of the deposited data

How the results depend on the processing

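Alternatives were pseudocounts of 0.1 and 0.01, no filter, minimums of 0.1 and 5 FPKM, 5 rescalings, removal of the GC and length trend (loess, span 0.5), eBayes without trend or robust, the replicate block alone and with the GC trend removed, and leaving out each library. The log2 fold change of CLPTM1L was negative in all 21, from -2.52 to -2.06. It moved by more than 1 SD with the upper quartile (-2.07), quantile normalization (-2.12), the trimmed mean of log ratios (-2.06) and centring on the median (-2.08). Without single libraries it ran from -2.43 to -2.20. Its difference from the band stayed within 1 SD in all 21. The count of lower band genes, 6 of 11, was 20 of 47 with no filter, 13 of 26 and 1 of 4 with minimums of 0.1 and 5 FPKM, and 3 of 11 with the upper quartile, the trimmed mean and centring. It was 7 of 11 with the GC and length trend removed. Without single libraries it ran from 4 to 8.

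limma called 0 genes overall. It called 1 gene, CLPTM1L, with the minimum of 5 FPKM, with the GC trend removed and with eBayes without trend, so that list genes called also became 1. It called 1 with the replicate block and 1 with the replicate block and the GC trend removed, ENSG00000261553 in both, and no band gene. Leaving out libraries gave 0 to 1372 calls, 1372 without Con replicate 3 and 3 without Con replicate 2, each including CLPTM1L and no other band gene. List genes called then ran from 0 to 15. The 2241 of 7406 genes without overlap became 4447 of 31440 with no filter. They became 3790 of 15800 and 1191 of 3278 with minimums of 0.1 and 5 FPKM. Without single libraries there were 2583 to 4255, the high end without Con replicate 3. For the same genes, leaving out a library can only raise this count, as it cannot make separate groups overlap. Other causes were not tested. Depth is unknown, and TERT, LPCAT1 and ENSG00000286388 are too low for more than their listed values. Giving the lists and band genes without Con replicate 2 was chosen after seeing the data.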
